A study of Mus musculus with 12 samples.

Results

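The 8 genes described here carry out antigen presentation on class II molecules of the major histocompatibility complex (MHC). They were chosen by gene symbol for their roles in that pathway, and all 8 were found among the 21960 genes listed for each tumor. Gene expression was measured by RNA sequencing in 12 mammary tumors of female C57BL/6 mice in which the mouse mammary tumor virus promoter, active in mammary epithelium, drives the middle T oncoprotein of polyoma virus (PyMT), so that mammary tumors arise without grafting. Each of 4 treatment groups held 3 tumors. The IgG1 group received a control antibody and the anti-PD-1 group an antibody (4H2) against PD-1, an inhibitory receptor of T cells. Both were injected intraperitoneally at 20 mg/kg for the first dose and 10 mg/kg afterwards, from a first tumor diameter of 0.6 cm. The DOX/IgG1 and DOX/anti-PD-1 groups received doxorubicin, a DNA-damaging anthracycline, at 5 mg/kg every week, each dose followed a day later by 10 mg/kg of the respective antibody, from a tumor diameter of 1 cm. The sample labels gave weekly treatment over 5 weeks for all groups, whereas the protocol placed antibody doses every 6 days up to day 18 in those without doxorubicin. Starting size and antibody schedule therefore differed together with doxorubicin and cannot be told apart from it. Mouse age at collection was not given in the sources used here.

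Class II molecules are pairs of an α and a β chain that display peptides from endosomes to CD4+ T cells. New pairs assemble on the invariant chain, which blocks the peptide groove and routes the complex to endosomes, where the H2-DM dimer helps exchange its remnant for peptide. Transcription depends on the transactivator Ciita, which docks on factors bound to the X and Y boxes of class II promoters. Dendritic cells and B cells express it constitutively, and interferon-gamma induces it in many other cells, epithelial tumor cells included.

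The values are TPM, a transcript abundance per length scaled to the library total, and comparisons were made on log2(TPM + 1). Summed TPM over the listed genes ran from 609418 to 725506 per tumor; sequencing depth is not kept by TPM and is unknown. A gene was called when limma's two-sided moderated test gave an adjusted p under 0.1 and a log2 fold change beyond 1 in either direction, among genes of at least 1 TPM in at least 3 tumors of the fit. The sources did not state whether the tumors of a group came from different mice, so the p-values measure the spread between these tumors. With 3 tumors against 3, an exact permutation test cannot go below p = 0.1. The first DOX/IgG1 tumor stood apart. It had the largest number of genes listed at 0, 8104 (36.9%), against 6534 to 7730 in the other tumors, and the lowest H2-Aa, H2-Eb1, H2-DMa and Cd74 of all 12. The number of genes called over all genes in DOX/IgG1 versus IgG1 was 5 with it and 122 without it, in doxorubicin over both antibodies 3 and 212, and in DOX/anti-PD-1 versus DOX/IgG1 0 and 4. Leaving out 1 tumor, this or another, changed the sign of the members' log2 fold changes or moved them by over 1.5 times in at least 1 case for 52 of the 56 values over all comparisons. The deposited column headers end in a suffix whose meaning was not given in the sources used here. It was the same in 9 tumors and different in the 3 DOX/anti-PD-1 tumors, so that whatever it marks cannot be told apart from that group. The header of the first DOX/IgG1 tumor also carries the added word test, again without a stated meaning. In bulk tumor RNA, fewer cells of a type and less RNA per cell cannot be told apart, which holds for every level below.

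H2-Aa, H2-Ab1 and H2-Eb1 encode the α chain and the β chain of the I-A molecule and the β chain of the I-E molecule. All 3 lie within the MHC on chromosome 17 (GRCm38: H2-Aa at chr17:34282744-34287823 on the minus strand, H2-Ab1 at chr17:34257689-34269419 and H2-Eb1 at chr17:34305867-34316674, both on the plus strand). Because H2-Aa and H2-Eb1 were lowest and highest in the same tumors, their promoters are shown: 250 bases before the annotated start, from RefSeq (build GRCm38.p6), 5′ to 3′ on the strand of the gene, at chr17:34287824-34288073 (minus) and chr17:34305617-34305866 (plus). Capitals mark matches to the core of the X1 box, ACNGATG, or of the Y box, GATTGG, on either strand; neither window held a gamma-activated site, TTCNNNGAA.
H2-Aa: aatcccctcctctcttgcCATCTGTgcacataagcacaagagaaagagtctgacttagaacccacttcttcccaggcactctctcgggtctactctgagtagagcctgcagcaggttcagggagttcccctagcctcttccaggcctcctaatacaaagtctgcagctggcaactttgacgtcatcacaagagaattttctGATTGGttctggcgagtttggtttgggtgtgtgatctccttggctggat
H2-Eb1: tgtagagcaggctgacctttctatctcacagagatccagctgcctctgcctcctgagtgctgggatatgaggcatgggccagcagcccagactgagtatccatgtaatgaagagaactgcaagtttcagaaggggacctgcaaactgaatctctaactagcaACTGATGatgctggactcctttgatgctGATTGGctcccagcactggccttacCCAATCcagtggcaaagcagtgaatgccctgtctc

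RefSeq windows matched 5 of the 8 members, 6 windows in all; H2-Ab1, Cd74 and Ciita had no entry. In H2-Eb1 an X1 core stood 82 to 88 bases before the start, with a Y core 21 bases after it at 55 to 60 bases and another Y core on the opposite strand at 30 to 35 bases. H2-Aa had a Y core 44 to 49 bases before the start and an X1 core on the opposite strand at 226 to 232 bases, so that its window held no match to an X1 core followed by a Y core. The search would miss an X box with letters other than ACNGATG. An X1 core followed by a Y core 10 to 40 bases later was also present in the windows of H2-DMb1 and H2-DMb2, each with 22 bases between them. Those windows overlap annotated exons by 119 and 13 bases and are not printed. The 2 windows of H2-DMa held 1 Y core, 194 to 199 bases before 1 of its starts, and H2-DMb2 held a gamma-activated site at 210 to 218 bases, counted on both strands because the letters searched are their own reverse complement. Of 32851 mouse promoter windows of the same length, 8.31% held an X1 core, 14.6% a Y core, 7.02% a gamma-activated site and 0.107% (35 windows) the ordered pair. These matches describe letters in a window and not binding.

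**Figure D1:**
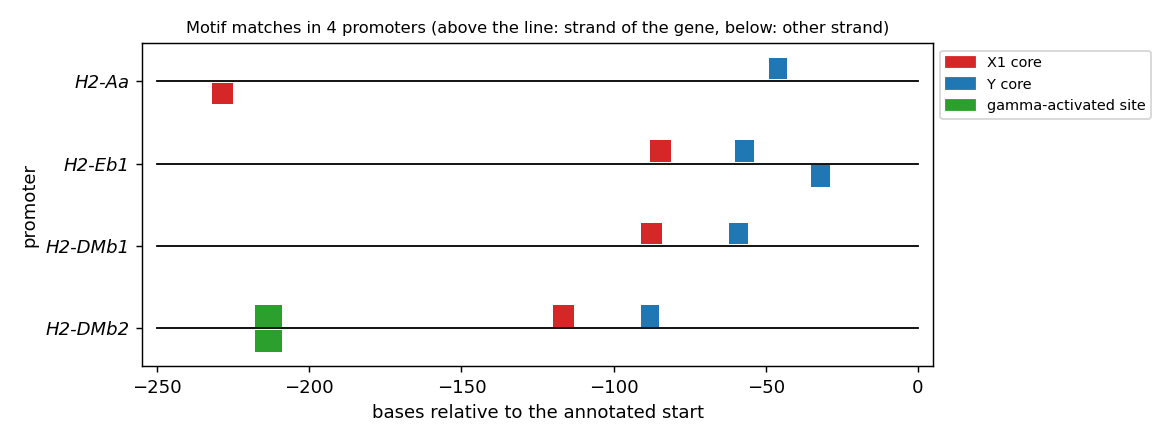
Positions of X1 cores, Y cores and gamma-activated sites in the RefSeq promoters of H2-Aa, H2-Eb1, H2-DMb1 and H2-DMb2; the horizontal axis is the position in bases relative to the annotated start, and boxes are matches on the strand of the gene (above the line) or the other strand (below). H2-Eb1, H2-DMb1 and H2-DMb2 hold an X1 core followed by a Y core, with 21, 22 and 22 bases between them.

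H2-Aa (ENSMUSG00000036594) was at 149.6, 156 and 171 TPM in the IgG1 tumors and 142, 145 and 182 TPM in the anti-PD-1 tumors. DOX/IgG1 tumors had 80.2, 199.8 and 339.7 TPM and DOX/anti-PD-1 tumors 144, 185 and 204 TPM. The lowest and the highest tumor of all 12 were both DOX/IgG1 tumors, and no pair of groups was separate. Group means were ordered DOX/IgG1 (207 ± 129.9 TPM, SD, n = 3), DOX/anti-PD-1 (178 ± 30.7), IgG1 (159 ± 10.8) and anti-PD-1 (156 ± 22.3), and neighbours in this order lay within their spread. The log2 fold change of DOX/IgG1 against IgG1 was 0.15 (SE 0.45, 95% interval -0.88 to 1.18, adjusted p = 0.949) by limma, and 0.71 without the first and -0.32 without the third DOX/IgG1 tumor. That of anti-PD-1 against IgG1 was -0.027 (SE 0.21, 95% interval -0.51 to 0.45, adjusted p = 0.999), and scaling the tumors by the median of ratios turned it to 0.0073.

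H2-Ab1 (ENSMUSG00000073421), the partner chain of H2-Aa, stood at 288, 183 and 270.4 TPM in the IgG1 tumors and 253, 162 and 172 TPM in the anti-PD-1 tumors. It was at 169, 256 and 405 TPM with DOX/IgG1 and at 284, 235 and 256 TPM with DOX/anti-PD-1. The highest tumor was the third DOX/IgG1 tumor, the lowest an anti-PD-1 tumor, and the groups overlapped in all 4 pairwise comparisons. Its largest log2 fold change, DOX/anti-PD-1 against anti-PD-1, was 0.42 (SE 0.24, 95% interval -0.12 to 0.96, adjusted p = 0.649) in limma, with an exact permutation p = 0.2.

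H2-Eb1 (ENSMUSG00000060586) was at 161, 172 and 183 TPM with IgG1 and at 131, 143 and 118 TPM with anti-PD-1. Levels were 116, 255 and 379.9 TPM in the DOX/IgG1 tumors and 154, 172 and 166 TPM in the DOX/anti-PD-1 tumors. The anti-PD-1 tumors lay below every IgG1 tumor and below every DOX/anti-PD-1 tumor. The DOX/IgG1 tumors spanned both lower and higher values than any other group. Means were 250.2 ± 132 TPM (SD, n = 3) for DOX/IgG1, 172 ± 10.8 for IgG1, 164 ± 9.41 for DOX/anti-PD-1 and 131 ± 12.3 for anti-PD-1. All neighbours in this order overlapped except the last pair. The log2 fold change of anti-PD-1 against IgG1 was -0.40 (SE 0.21, 95% interval -0.86 to 0.067, adjusted p = 0.996) in limma, with an exact permutation p = 0.1, the lowest this design allows. For DOX/anti-PD-1 against anti-PD-1 it was 0.32 (SE 0.20, 95% interval -0.13 to 0.78, adjusted p = 0.678), again with an exact permutation p = 0.1. Neither difference passed the adjustment over all genes. The interaction of the treatments was -0.054 (SE 0.46, adjusted p = 0.996) on the log2 scale, -0.53 without the first DOX/IgG1 tumor and 0.33 without the third. An antisense gene, Gm20513, overlaps H2-Eb1. The library kit keeps strand, but the setting used for counting was not given in the sources used here. The gene of the I-E α chain was not listed, under H2-Ea or H2-Ea-ps. Levels of H2-Eb1 therefore do not show whether an I-E molecule was made.

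**Figure D2:**
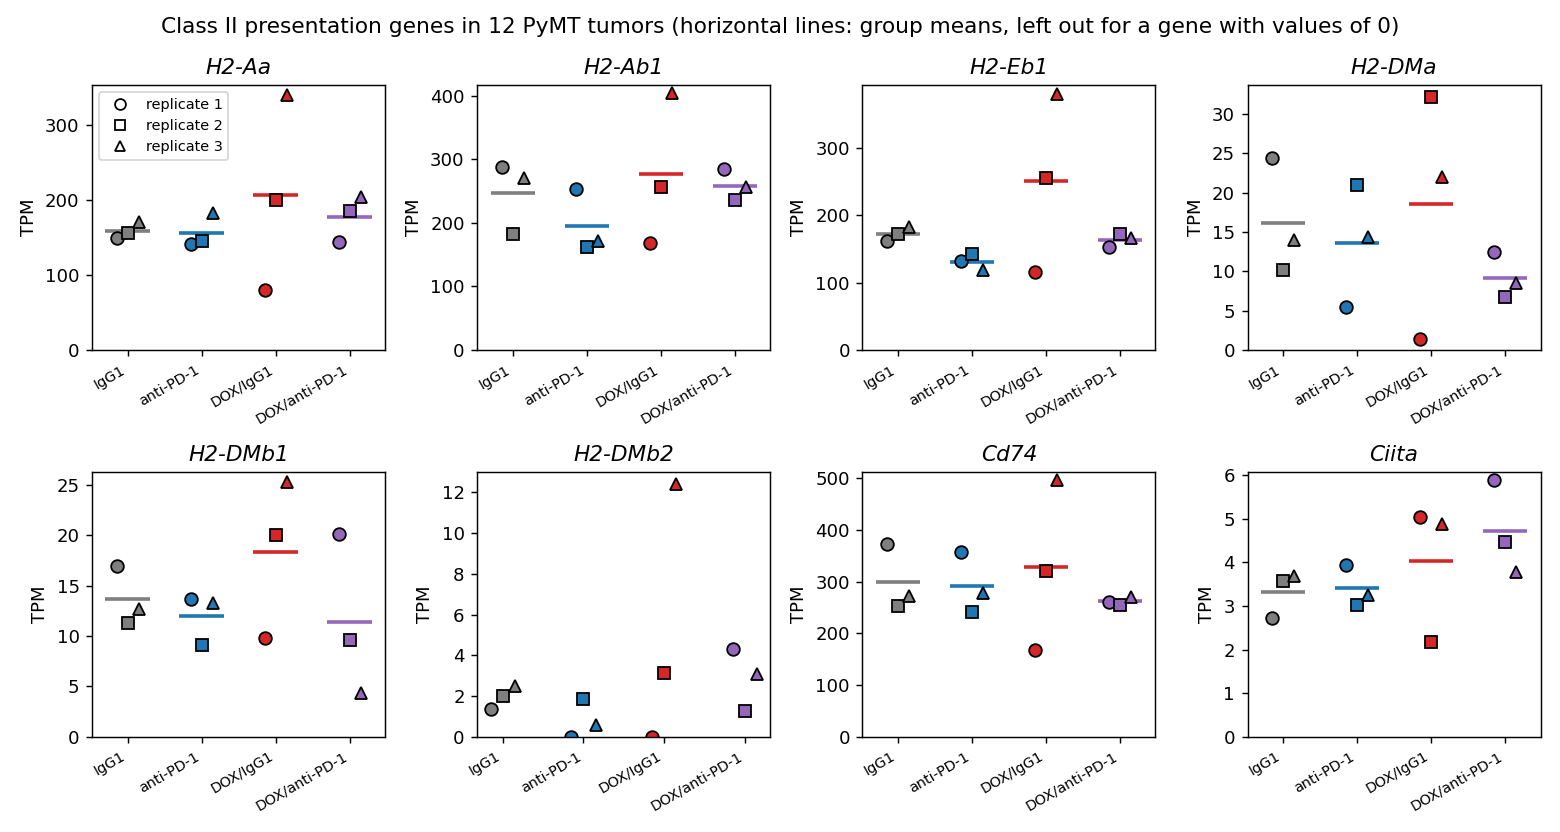
TPM of each of the 8 members in the 12 tumors, by treatment group; points are tumors and horizontal lines are group means, left out for H2-DMb2, which has values of 0. H2-Aa ranges from 80.2 to 339.7 TPM within the DOX/IgG1 group alone.

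Cd74 (ENSMUSG00000024610, chromosome 18), the invariant chain, was the most abundant member per transcript length, with a mean of 295 TPM over the 12 tumors. Its levels were 373, 253 and 272 TPM in the IgG1 tumors and 356, 241 and 277 TPM in the anti-PD-1 tumors. DOX/IgG1 tumors were at 169, 321 and 496 TPM and DOX/anti-PD-1 tumors at 260.1, 255 and 271 TPM. As for H2-Aa, a DOX/IgG1 tumor was lowest and another highest, the DOX/anti-PD-1 tumors were close together, and all groups overlapped. Means were 329 ± 164 TPM (SD, n = 3) for DOX/IgG1, 299 ± 64.8 for IgG1, 292 ± 58.9 for anti-PD-1 and 262 ± 7.93 for DOX/anti-PD-1, with neighbours within their spread. The log2 fold change of DOX/IgG1 against IgG1 was 0.023 (SE 0.38, 95% interval -0.84 to 0.89, adjusted p = 0.994) in limma; it was 0.44 without the first DOX/IgG1 tumor, -0.34 without the third and -0.10 with scaling by the median of ratios. A microRNA gene, Mir5107, overlaps Cd74 on its own strand.

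H2-DMa (ENSMUSG00000037649), H2-DMb1 (ENSMUSG00000079547) and H2-DMb2 (ENSMUSG00000037548) encode the α chain and 2 β chains of the peptide exchange factor H2-DM, and were less abundant per transcript length than the chains it acts on. H2-DMa was at 24.4, 10.1 and 13.98 TPM in the IgG1 tumors and 5.45, 20.96 and 14.4 TPM in the anti-PD-1 tumors. It was at 1.47, 32.1 and 21.97 TPM in the DOX/IgG1 tumors and 12.5, 6.7 and 8.49 TPM in the DOX/anti-PD-1 tumors. The first DOX/IgG1 tumor was the lowest of all and the second the highest, and every pair of groups overlapped. The ratio of the highest to the lowest was 21.9. The log2 fold change of DOX/IgG1 against IgG1 was -0.39 (SE 0.87, 95% interval -2.38 to 1.59, adjusted p = 0.934) in limma and turned to 0.77 without that lowest tumor. H2-DMb1 was at 16.9, 11.2 and 12.7 TPM in the IgG1 tumors, 13.7, 9.12 and 13.3 in the anti-PD-1 tumors, 9.81, 19.99 and 25.3 in the DOX/IgG1 tumors and 20.1, 9.64 and 4.39 in the DOX/anti-PD-1 tumors. Its lowest value was in a DOX/anti-PD-1 tumor and its highest in the third DOX/IgG1 tumor, with overlap between all groups. H2-DMb2 was at 1.38, 1.98 and 2.5 TPM in the IgG1 tumors, 0, 1.85 and 0.59 in the anti-PD-1 tumors, 0, 3.12 and 12.4 in the DOX/IgG1 tumors and 4.31, 1.29 and 3.09 in the DOX/anti-PD-1 tumors. It was listed at 0 in an anti-PD-1 and a DOX/IgG1 tumor and was highest in the third DOX/IgG1 tumor; its groups overlapped as well. The log2 fold change of DOX/anti-PD-1 against anti-PD-1 for H2-DMb2, 1.15 (SE 0.57, 95% interval -0.12 to 2.43, adjusted p = 0.612), was the largest of the members' values over the 7 comparisons as reported here. H2-DMb1 and H2-DMb2 share sequence. Of the 75-base stretches of their annotated transcripts, 19.1% (254 of 1330) for H2-DMb1 occur in H2-DMb2, and 16.1% (281 of 1741) for H2-DMb2 occur in H2-DMb1 or other genes, so that their separate values are uncertain. The other 6 members shared none. H2-DMa overlaps Brd2 and other annotated genes on the other strand and another annotated gene on its own strand.

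Ciita (ENSMUSG00000022504, chr16:10480059-10528418, plus strand), the transactivator on which the other members depend, was at 2.72, 3.56 and 3.69 TPM in the IgG1 tumors and 3.94, 3.03 and 3.25 TPM in the anti-PD-1 tumors. DOX/IgG1 tumors had 5.04, 2.17 and 4.88 TPM and DOX/anti-PD-1 tumors 5.89, 4.46 and 3.77 TPM. It was low throughout, highest in a DOX/anti-PD-1 tumor, and lowest in the second DOX/IgG1 tumor. The groups overlapped in the 4 pairwise comparisons. Means were 4.71 ± 1.08 TPM (SD, n = 3) for DOX/anti-PD-1, 4.03 ± 1.61 for DOX/IgG1, 3.41 ± 0.475 for anti-PD-1 and 3.32 ± 0.526 for IgG1, neighbours lying within their spread. In the stratified exact permutation test of doxorubicin (400 arrangements, smallest possible p = 0.005), Ciita had the lowest p of the 8 members looked at, 0.165, for a log2 difference of 0.26. Dexi overlaps Ciita on the other strand.

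For several members the DOX/IgG1 tumors lay farthest apart. The SD of log2(TPM + 1) of H2-Aa was 1.05 in this group, against 0.0968 in IgG1, 0.197 in anti-PD-1 and 0.258 in DOX/anti-PD-1. For Cd74 the SDs in the same order were 0.78, 0.298, 0.285 and 0.0433. Over all 14735 genes the median SD was 0.428 in DOX/IgG1, 0.4 in IgG1, 0.34 in anti-PD-1 and 0.427 in DOX/anti-PD-1. The difference in spread between groups was not tested. In the third DOX/IgG1 tumor H2-Aa, H2-Ab1, H2-Eb1, H2-DMb1, H2-DMb2 and Cd74 were at their highest. Ciita followed another order: in the first DOX/IgG1 tumor, where H2-Aa was lowest, Ciita ranked 11 of 12 from the lowest.

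**Figure D3:**
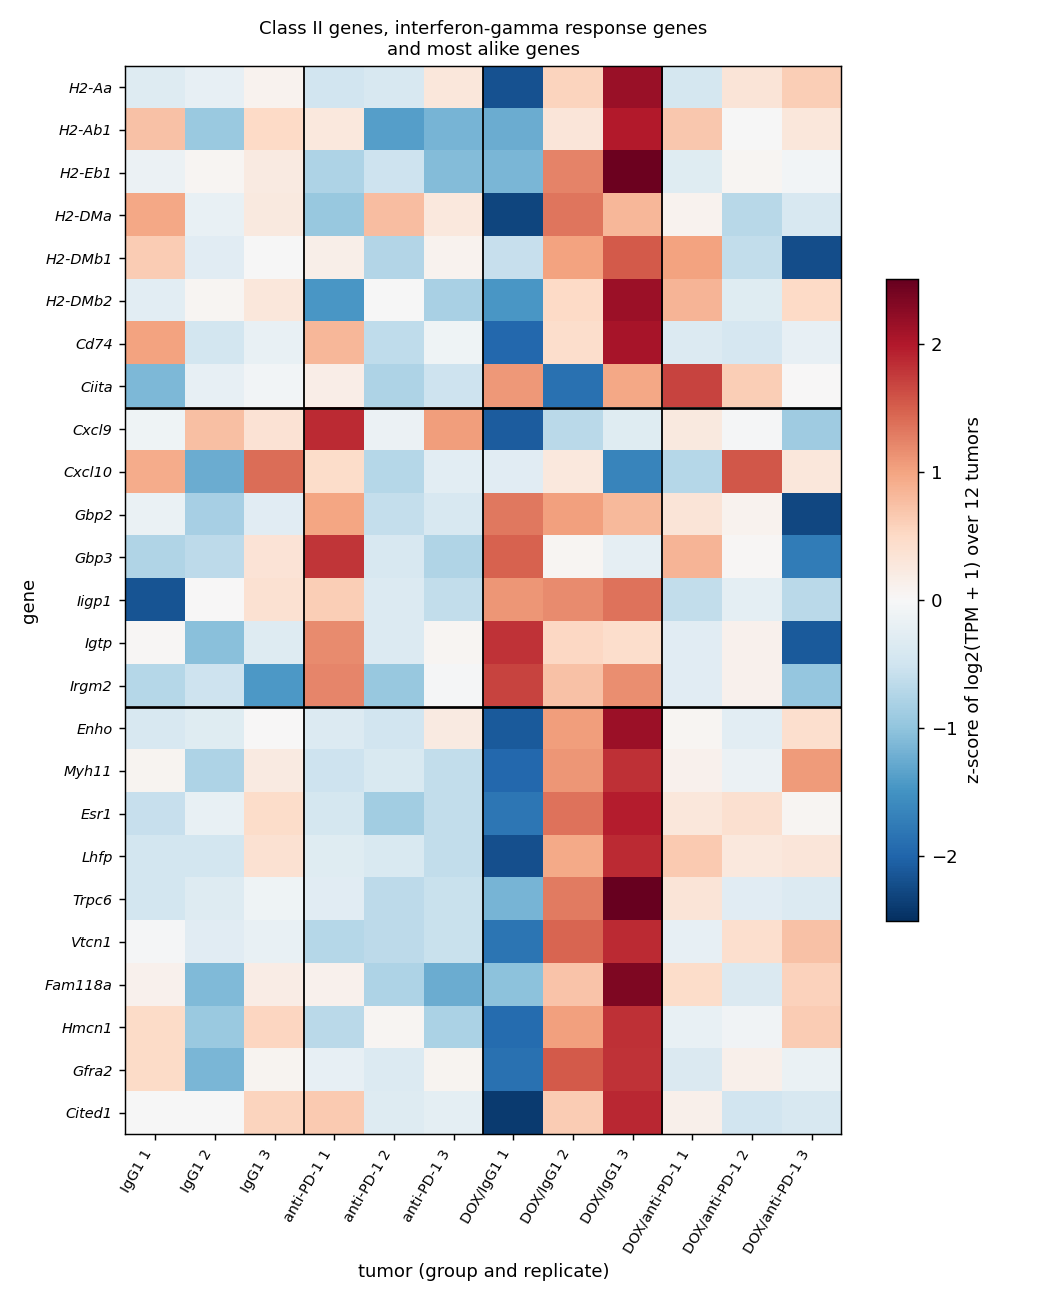
z-scores of log2(TPM + 1) over the 12 tumors for the 8 members, the interferon-gamma response genes and the 10 genes most like the abundant members, from top to bottom; columns are tumors by group and replicate. The first DOX/IgG1 tumor is low and the third high for H2-Aa, H2-Eb1 and Cd74, while Ciita is high in both.

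DOX/IgG1 versus IgG1 asks how these genes differ with doxorubicin in the absence of PD-1 blockade. The α and β chains, the invariant chain and Ciita had log2 fold changes between 0.023 (Cd74) and 0.38 (H2-Eb1), each smaller than 1. All 8 members were tested, 7 were above 0 and 1, H2-DMa, below; with scaling by the median of ratios H2-Ab1 (-0.020) and Cd74 (-0.10) were below 0 too, as was H2-DMb2 with a pseudocount of 0.1 TPM (-0.33). None of the 8 was called by limma (0 of 8 also at an unadjusted p below 0.05), where 5 of 13874 genes, 0.036%, were called and 1073 reached an unadjusted p below 0.05. None had separate groups, against 14% of all genes in either direction. The members' median was 0.16 beside 0.12 over all genes; scaling moved the latter to 0.0135. Without the first DOX/IgG1 tumor the log2 fold changes were 0.71 for H2-Aa, 0.41 for H2-Ab1, 0.85 for H2-Eb1, 0.70 for H2-DMb1, 1.35 for H2-DMb2 and 0.0055 for Ciita, and none was called. Without the third, where most members were highest, they were -0.32 for H2-Aa, -0.22 for H2-Ab1, -0.0015 for H2-Eb1, 0.060 for H2-DMb1, -0.52 for H2-DMb2 and 0.025 for Ciita, again with none called. Leaving out other tumors also moved the 5 calls over all genes: 0 were made without any 1 of the 3 IgG1 tumors or without the third DOX/IgG1 tumor, and 2 without the second. Named after their values were seen, the 5 were the salivary genes Bpifa2 and Smr3a, higher, and the serum amyloid genes Saa1 and Saa2 and the histone gene Hist1h2af, lower. With the replicate number as a block 4 of these 5 calls were lost and that of Hist1h2af was not; with all 12 tumors in 1 fit that of Hist1h2af was lost.

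DOX/anti-PD-1 versus anti-PD-1 asks the same in the presence of PD-1 blockade. Every tumor given both drugs had more H2-Eb1 than any given anti-PD-1 alone, with a mean difference of 0.32 on the log2 scale; H2-Ab1 (0.42) and Ciita (0.36) had similar values with overlapping groups, and H2-DMa (-0.38), H2-DMb1 (-0.27) and Cd74 (-0.14) were below 0. In limma 0 of 8 members were called and 0 reached an unadjusted p below 0.05, beside 0 of 13736 genes called (0%) and 1185 at that p. The share of genes with separate groups was 14.9%, a background near which 1 of 8 members lies. The median was 0.25 for the members and 0.11 for all genes. Scaling moved the latter to -0.0077 and the share of genes above 0 from 60% to 49.2%. Over all genes, 4 were called without the second DOX/anti-PD-1 tumor, and 1 without the first anti-PD-1 tumor, the first DOX/anti-PD-1 tumor or the third DOX/anti-PD-1 tumor.

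Anti-PD-1 against IgG1 addresses PD-1 blockade alone. H2-Eb1 was lower in every anti-PD-1 tumor than in any IgG1 tumor (-0.40), and H2-Ab1 (-0.34) and H2-DMa (-0.32) were below 0 with overlapping groups, as was H2-DMb2 (-0.82), the value farthest from 0, while Cd74 (-0.035) and Ciita (0.030) were near 0. In total 7 members were below 0 and 1 above, H2-Aa changing side with scaling (0.0073). Calls by limma were 0 of 8 (0 at an unadjusted p below 0.05) and 0 of 13692 genes (0%; 630 at that p). Separate groups were found for 1 of 8 members and 9.88% of all genes. The members' median of -0.24 stood beside -0.026. The share in the background is again near that of the members. Without the first IgG1 tumor 4 genes in all were called, without the second 2 and without the second anti-PD-1 tumor 1. This comparison and those with doxorubicin share control tumors, so their values are not independent: the anti-PD-1 tumors with low H2-Eb1 enter this comparison and the preceding one.

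DOX/anti-PD-1 versus DOX/IgG1 addresses PD-1 blockade given with doxorubicin. H2-Aa (-0.0031) and H2-Ab1 (-0.012) were nearly equal on average, H2-Eb1 was at -0.45, H2-DMb1 at -0.77 and Ciita at 0.22. Of the 8 members 7 were below 0 and 1 above; with scaling H2-Aa (0.024) and H2-Ab1 (0.015) were above 0, as was H2-DMb2 with a pseudocount of 0.1 TPM (0.76). None was called by limma or reached an unadjusted p below 0.05 (0 of 8), and over all 13946 genes 0 were called (0%) and 655 reached that p. No member had separate groups, against 10.2% of all genes, and the median was -0.12 beside -0.037. Without the first DOX/IgG1 tumor H2-Aa was at -0.57, H2-Eb1 at -0.92, Cd74 at -0.61 and H2-DMa at -1.47, none of them called. Without the third DOX/IgG1 tumor H2-Aa was at 0.47, H2-Ab1 at 0.31, H2-Eb1 at -0.070, Cd74 at 0.17, H2-DMa at 0.14, H2-DMb1 at -0.50, H2-DMb2 at 0.86 and Ciita at 0.37, also without a call. Over all genes 4 calls were made without the first DOX/IgG1 tumor, and 1 without the third DOX/anti-PD-1 tumor.

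All 12 tumors together gave the effect of doxorubicin over both antibodies, of anti-PD-1 over both chemotherapy arms, and their interaction. With doxorubicin, H2-Eb1 was at 0.35 (SE 0.22, 95% interval -0.12 to 0.83, adjusted p = 0.56), H2-Ab1 at 0.26, Ciita at 0.26, H2-Aa at 0.16 and H2-DMb2 at 0.77 (1.24 without the first DOX/IgG1 tumor), while H2-DMa (-0.39) and Cd74 (-0.057) were below 0 and H2-DMb1 (0.029) was below 0 with scaling (-0.085). None of the 8 was called by limma (0 at an unadjusted p below 0.05), with 3 of 14735 genes (0.0204%) called and 1765 at that p. The median was 0.21 for members and 0.12 for all genes, which scaling moved to 0.0071, with the share of genes above 0 going from 63.3% to 50.7%. Without the first DOX/IgG1 tumor H2-Eb1 was at 0.56, H2-Aa at 0.42, H2-DMa at 0.13 and Cd74 at 0.12. Without the third DOX/IgG1 tumor H2-Eb1 was at 0.18, H2-Ab1 at 0.14, H2-Aa at -0.044 and H2-DMb2 at 0.41. The 3 calls over all genes were Col27a1, Gas6 and St3gal4, all higher and named after their values were seen; with the replicate number as a block that of St3gal4 was kept and the others were lost, with scaling that of Gas6 was lost, and with no minimum on TPM that of Col27a1. The number of genes called, which need not be these, was 27 without the second DOX/anti-PD-1 tumor, 6 without the first, 5 without the third anti-PD-1 tumor, 2 without the second DOX/IgG1 tumor, 1 without the third DOX/anti-PD-1 tumor, and 0 without the second IgG1, the third IgG1, the first anti-PD-1 or the third DOX/IgG1 tumor. Scaling by the median of ratios gave 14 calls over all genes. With anti-PD-1, 7 members were below 0 and Ciita above (0.13); H2-Aa (-0.015) was above 0 with scaling (0.016) and at -0.27 without the first and 0.19 without the third DOX/IgG1 tumor. By limma 0 of 8 were called (0 at an unadjusted p below 0.05), as were 0 of 14735 genes (0%; 691 at that p), and the median was -0.24 beside -0.031. For the same effect of anti-PD-1, 7 of 9 macrophage markers were below 0 and 2 above, from -0.72 to 0.91 with a median of -0.26. By limma 3 of these 9 had an unadjusted p below 0.05 (4.69% of all genes) and none was called. The leukocyte gene Ptprc was at -0.43. Most tested markers of other lists were below 0 as well. This held for 6 of 8 dendritic cell, 3 of 4 T cell and 3 of 4 NK cell markers. It also held for 6 of 7 mammary epithelium and 4 of 4 fibroblast markers. Of all genes, 45.6% were above 0. The part of any of these cell types in the members' values was not tested. For the interaction 0 of 8 members were called (0 at an unadjusted p below 0.05) beside 1 of 14735 genes (0.00679%, with 694 at that p). The members' median was 0.016 and that of all genes -0.0077. That call was Bpifa2, and it was lost with scaling, with a pseudocount of 0.1 TPM and with the replicate number as a block. Leaving out the first DOX/IgG1 tumor also gave 1 call, Bpifa2, leaving out the third DOX/anti-PD-1 tumor gave 1 that was not Bpifa2, and leaving out any other tumor gave 0.

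**Figure D4:**
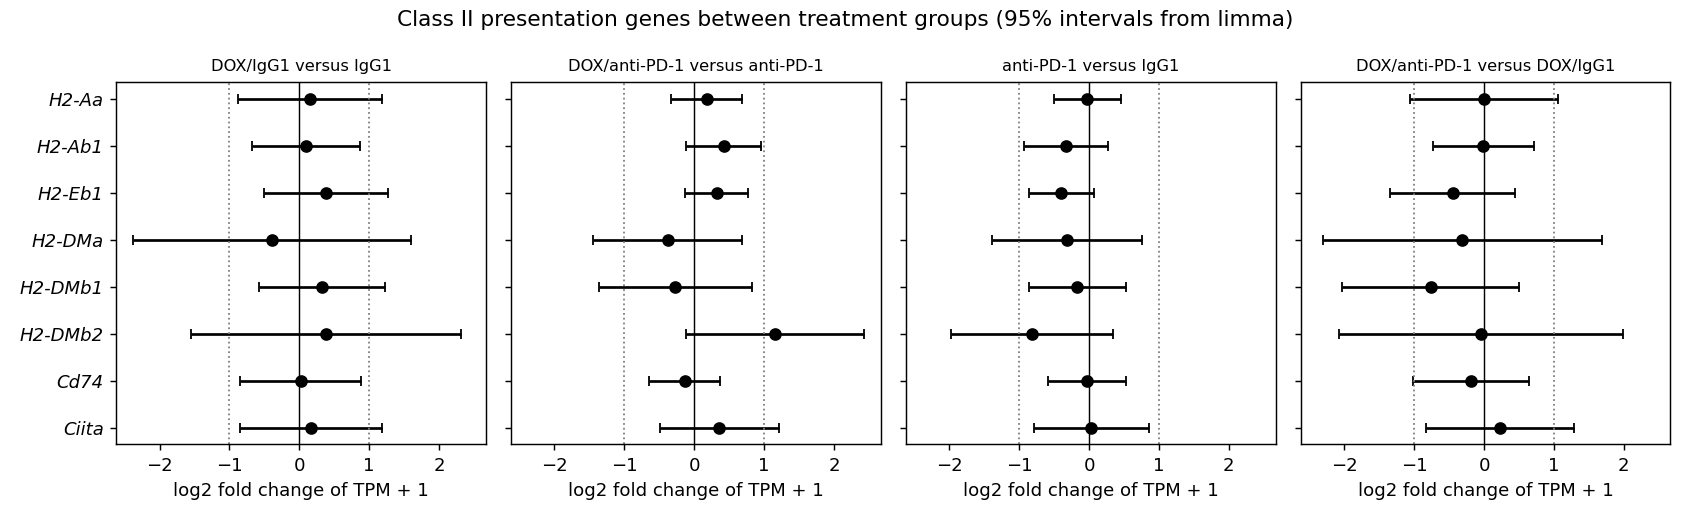
log2 fold changes of the 8 members in the 4 pairwise comparisons; points are limma estimates and lines their 95% intervals. Every interval includes 0, H2-Eb1 in anti-PD-1 versus IgG1 reaching 0.067 at its upper end.

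Other genes of the pathway were followed as 7 lists. No gene of these lists was called by limma in any comparison, with counts at an unadjusted p below 0.05 given beside the lists for the comparisons of doxorubicin within an antibody arm and together for the others. Of 5 other class II genes 3 were listed, H2-Eb2, H2-Oa and H2-Ob, and only H2-Ob, a chain of the DM inhibitor H2-O, was tested (0 of 1 at an unadjusted p below 0.05). It was at 1.03, 3.12 and 3.46 TPM in IgG1, 2.7, 0.67 and 1.37 in anti-PD-1, 0, 0.45 and 2.34 in DOX/IgG1 and 6.17, 2.65 and 0 in DOX/anti-PD-1 tumors, without separation of groups. Its log2 fold change was -0.98 for DOX/IgG1 against IgG1 and 0.28 for DOX/anti-PD-1 against anti-PD-1, the latter changing side with a pseudocount of 0.1 TPM. Among 7 promoter-binding factors, of which Creb1 was the most abundant (mean 78.4 TPM), Rfxap, a subunit of the RFX complex that binds the X box, was at 53.96, 51.7 and 31.4 TPM in the IgG1 tumors and 21.5, 21.01 and 28.4 TPM in the DOX/IgG1 tumors. The DOX/IgG1 tumors were all below the IgG1 tumors, with a log2 fold change of -0.90 (SE 0.30, adjusted p = 0.547) in limma; for DOX/anti-PD-1 against anti-PD-1 it was -0.77 (SE 0.33, adjusted p = 0.562), with overlap. The share of all genes with separate groups was 14%. The list had 1 of 7 genes at an unadjusted p below 0.05 in each of these comparisons, beside 7.73% and 8.63% of all genes, and medians of -0.018 and -0.15. The 7 antigen processing genes were abundant, Ctss, the protease that trims the invariant chain, most of all (mean 452 TPM). Ctsh, an endosomal protease, was at 360.2, 334 and 379.98 TPM in IgG1 and 223, 275 and 251 TPM in DOX/IgG1 tumors, separate groups (as for 14% of all genes), at -0.52 (SE 0.21, adjusted p = 0.611) on the log2 scale. Ifi30, a lysosomal thiol reductase, was at -0.57 (SE 0.54, adjusted p = 0.78) for DOX/anti-PD-1 against anti-PD-1 and at 0.18 without the third DOX/anti-PD-1 tumor. The list's medians were 0.025 without and -0.32 with PD-1 blockade, with 1 and 0 of 7 at an unadjusted p below 0.05 (7.73% and 8.63% of all genes). Of 5 surface turnover symbols 3 were listed, March1, March8 and Cd83, with March8 the most abundant (mean 70.5 TPM). The ubiquitin ligase March1, which removes class II from the surface, was at -0.33 for DOX/IgG1 against IgG1 (-0.014 without the first DOX/IgG1 tumor), and March8 at 0.67 (SE 0.31, adjusted p = 0.585) for DOX/anti-PD-1 against anti-PD-1 (0.38 without the first anti-PD-1 tumor). Medians were -0.24 and 0.17, with 0 of 3 at an unadjusted p below 0.05. Of 3 costimulation genes Cd86 was the most abundant (mean 8.04 TPM). Cd86 was at 3.18, 6.54 and 4.84 TPM with anti-PD-1 and 11.3, 7.55 and 7.36 TPM with DOX/anti-PD-1, all of the latter higher (groups were separate for 14.9% of all genes), at 0.75 (SE 0.38, adjusted p = 0.616) on the log2 scale. Cd40 was at 0.50 for DOX/IgG1 against IgG1 and at -0.32 without the first DOX/IgG1 tumor. Medians were 0.25 and 0.60, with 0 of 3 at an unadjusted p below 0.05 in both comparisons.

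The interferon-gamma lists hold the pathway that induces Ciita and genes that respond to the cytokine. Of the input genes, Irf1, a transcription factor, was at 54.5, 43.6 and 54.6 TPM in the IgG1 tumors and 58.95, 90.4 and 86.5 TPM in the DOX/IgG1 tumors, and the receptor chain Ifngr1 at 65.4, 60.3 and 59.8 TPM and 115, 89.1 and 66.6 TPM. For both genes all DOX/IgG1 tumors were above all IgG1 tumors (against 14% of all genes separate in either direction). The log2 fold change in limma was 0.60 (SE 0.25, adjusted p = 0.629) for Irf1 and 0.50 (SE 0.25, adjusted p = 0.691) for Ifngr1, and neither passed the adjustment. Of the 6 tested input genes 3 had an unadjusted p below 0.05, beside 7.73% of all genes, and none was called; the median over them was 0.55 beside 0.12 over all genes. Ifng itself was listed at 0 in 10 of 12 tumors and was not tested. Of 7 response genes 5 had separate groups and 5 an unadjusted p below 0.05, beside 14% and 7.73% of all genes: the guanylate-binding protein gene Gbp2 and the immunity-related GTPase genes Iigp1, Igtp and Irgm2 were higher, and the chemokine gene Cxcl9 was lower. Iigp1, the most abundant, was at 48.2, 82.8 and 91.2 TPM in IgG1 and 109, 111 and 116 TPM in DOX/IgG1 tumors. Cxcl9 was at 4.31, 9.82 and 6.78 TPM and 0, 2.29 and 3.45 TPM in the same groups, listed at 0 in the first DOX/IgG1 tumor. Directions within this list were thus mixed. The list median was 0.64, and Cxcl9 had a log2 fold change of -1.64 (SE 0.63, adjusted p = 0.591) in limma and of -0.999 without the first DOX/IgG1 tumor. With PD-1 blockade in both groups, 0 of 7 response genes were separate or had an unadjusted p below 0.05, with a median of -0.31 beside 0.11; Cxcl9 was at -1.38 there and at -0.81 without the first anti-PD-1 tumor. Of the input genes 2 of 6, Ifngr1 and Jak1, had separate groups, both higher (against 14.9% of all genes in either direction); 0 had an unadjusted p below 0.05, and the list had a median of 0.14, Jak2 being at 0.48 and at 0.12 without the third DOX/anti-PD-1 tumor. Between the DOX groups, 4 of 7 response genes, Gbp2, Iigp1, Igtp and Irgm2, were separate and lower with anti-PD-1 (10.2% of all genes being separate in either direction), with a median of -0.61, and in anti-PD-1 against IgG1 0 of 7, with a median of 0.35. The interaction had the same 4 of 7 at an unadjusted p below 0.05 (4.71% of all genes), a median of -0.79 and no call. In the other comparisons the counts of tested pathway genes at an unadjusted p below 0.05 were as follows, lists not mentioned having 0. For anti-PD-1 versus IgG1 all 7 lists had 0, beside 4.6% of all genes. For DOX/anti-PD-1 versus DOX/IgG1 they were 1 of 6 input genes and 4 of 7 response genes, beside 4.7% of all genes. For doxorubicin over both antibodies they were 1 of 7 promoter-binding factors, 1 of 7 antigen processing genes, 2 of 6 input genes and 1 of 7 response genes, beside 12% of all genes. For anti-PD-1 over both chemotherapy arms all 7 lists had 0, beside 4.69% of all genes. For the interaction they were 1 of 3 surface turnover genes, 1 of 6 input genes and 4 of 7 response genes, beside 4.71% of all genes. The genes named by separation were chosen after their values were seen.

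Marker genes of cell types that could carry class II transcripts were summed per tumor. All 10 dendritic cell markers were listed and summed to 49.1, 41.5 and 61.8 TPM in IgG1, 99.6, 51.8 and 41.5 in anti-PD-1, 82.1, 61.4 and 94.7 in DOX/IgG1 and 55.05, 56.4 and 72.8 in DOX/anti-PD-1 tumors, with Itgax the most abundant (mean 22.7 TPM). All 9 macrophage markers were listed and summed to 408, 304 and 359 TPM in IgG1, 254, 366 and 301 in anti-PD-1, 356, 437 and 424 in DOX/IgG1 and 320.5, 440.3 and 330.01 in DOX/anti-PD-1 tumors, C1qa leading with a mean of 117 TPM. The first DOX/IgG1 tumor, the lowest for H2-Aa, differed in the makeup of its dendritic cell sum. There 5 of the 10 markers, Xcr1, Clec9a, Batf3, Cd209a and Ccr7, were listed at 0, and Clec10a alone was at 54.6 TPM. Summed without Clec10a, an alternative added after seeing the data, that tumor was the lowest of the 12 at 27.4 TPM, against 32.9 to 79.1 TPM in the others. Zbtb46 (6.63 TPM) and Flt3 (1.21 TPM) were above their means over all tumors, 6.34 and 0.948 TPM. Itgax (18.55 TPM) and Siglech (1.06 TPM) were below theirs, 22.7 and 2.84 TPM. Of the markers at 0, Ccr7 was at 0 in 7 tumors and Xcr1 in 3. More genes were listed at 0 in that tumor (36.9%) than in any other. Its macrophage sum was not the lowest. Single dendritic cell markers went both ways in DOX/anti-PD-1 against anti-PD-1, where 3 of 7 tested had an unadjusted p below 0.05 (8.63% of all genes), named after their values were seen, and none was called. Itgax, an integrin chain, was at 46.9, 28.5 and 23.7 TPM with anti-PD-1 and 14.2, 12.6 and 12.8 TPM with DOX/anti-PD-1, all of the latter lower, at -1.21 (SE 0.31, adjusted p = 0.479) on the log2 scale in limma. The transcription factor gene Zbtb46 was at 0.92 (SE 0.34, adjusted p = 0.531), with all DOX/anti-PD-1 tumors higher, and the lectin gene Cd209a at 1.55 (SE 0.54, adjusted p = 0.504), with overlap. Groups were separate for 2 of 7 tested markers and 14.9% of all genes. B cell markers, 7 of 7 listed, summed to 3.53, 3.08 and 5.56 TPM in IgG1, 1.21, 2.27 and 2.46 in anti-PD-1, 4.44, 2.53 and 11.1 in DOX/IgG1 and 1.25, 13.1 and 2.98 in DOX/anti-PD-1 tumors. Cd22 was the most abundant, only 1 of the 7 reached 1 TPM in 3 tumors, and Ms4a1, Cd79a, Cd79b and Blk were listed at 0 in 8, 9, 8 and 10 tumors. The pan-leukocyte gene Ptprc, a list of 1, was at 88.03, 100.4 and 155 TPM in IgG1, 80.9, 106 and 58.8 in anti-PD-1, 51.9, 123 and 170.2 in DOX/IgG1 and 60.1, 105 and 78.3 in DOX/anti-PD-1 tumors. Like H2-Aa, it was lowest in the first DOX/IgG1 tumor and highest in the third. T cell markers, 6 of 6 listed with Cd3e the most abundant, summed to 20.3, 11.96 and 6.48 TPM in IgG1, 4.25, 14.3 and 8.81 in anti-PD-1, 5.76, 44.4 and 40.3 in DOX/IgG1 and 13.9, 15.1 and 32.8 in DOX/anti-PD-1 tumors. NK cell markers, 5 of 5 listed with Klrd1 the most abundant, summed to 11.2, 7.06 and 6.98 TPM in IgG1, 5.8, 11.8 and 20.7 in anti-PD-1, 6.72, 45.7 and 38.9 in DOX/IgG1 and 6.06, 24.8 and 14.5 in DOX/anti-PD-1 tumors. Both sums were highest in the second and the third DOX/IgG1 tumor and low in the first. No gene of these lists was at 0 in all tumors, and the part of these cell types in the class II values was not tested.

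Markers of tissue next to the tumors were read in the same way. Mammary epithelium markers, 7 of 7 listed, summed to between 2034 and 3670.01 TPM, with Epcam the most abundant, so that markers of the labelled tissue were present. Fibroblast markers (4 of 4) summed to between 418 and 1462 TPM and were led by Col1a1. Sums for the 5 adipocyte markers ran from 36.1 to 476 TPM (Adipoq most abundant), with 4 of 5, Adipoq, Plin1, Lep and Fabp4, at an unadjusted p below 0.05 in DOX/anti-PD-1 versus anti-PD-1 (8.63% of all genes), named after their values were seen, and none called. Without the first DOX/anti-PD-1 tumor the log2 fold change went from 1.76 to 1.08 for Adipoq, from 1.47 to 0.74 for Plin1 and from 1.91 to 0.99 for Fabp4. Sums ran for the 3 skeletal muscle markers from 0 to 478 TPM (Acta1) and for the 6 lymph node markers from 0 to 28.9 TPM (Ccl21a). Lymph node markers were all listed at 0 in the first DOX/IgG1 tumor. The 4 salivary gland markers stood apart by group, at 60.1, 74.3 and 105 TPM in the DOX/IgG1 tumors against 4.85 to 21.8 TPM in all others, Amy1 being the most abundant. The marker lists were chosen with earlier results of these data known. The separation of these markers and their counts at an unadjusted p below 0.05 are therefore no independent test. Bpifa2 and Smr3a were 2 of the 5 genes called in DOX/IgG1 against IgG1 and were listed at 0 in all IgG1 tumors. Both calls were lost with the replicate number as a block (adjusted p = 0.113 and 0.163 by limma, over all alternatives from 0.00181 to 0.317 and from 0.0183 to 0.317) and without any 1 tumor except the first DOX/IgG1 tumor, that of Smr3a also with a pseudocount of 0.1 TPM. The part of this tissue in the class II values was not tested. Over the 12 marker lists, the counts of tested genes at an unadjusted p below 0.05 were as follows, lists not mentioned having 0. In DOX/IgG1 versus IgG1 they were 1 of 4 T cell markers, 1 of 3 NK cell markers, 1 of 7 mammary epithelium markers, 1 of 4 fibroblast markers and 3 of 3 salivary gland markers, beside 7.73% of all genes. In DOX/anti-PD-1 versus anti-PD-1 they were 3 of 7 dendritic cell markers, 1 of 3 lymph node markers, 1 of 7 mammary epithelium markers, 4 of 5 adipocyte markers and 2 of 4 fibroblast markers, beside 8.63% of all genes. In anti-PD-1 versus IgG1 they were 1 of 9 macrophage markers, 1 of 4 T cell markers, 1 of 7 mammary epithelium markers and 1 of 4 fibroblast markers, beside 4.6% of all genes. In DOX/anti-PD-1 versus DOX/IgG1 they were 1 of 8 dendritic cell markers, 2 of 9 macrophage markers and 3 of 3 salivary gland markers, beside 4.7% of all genes. Apart from the salivary gland genes Bpifa2 and Smr3a, no marker gene was called in these 4 comparisons.

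Correlations of Ciita with each of the other 7 members were computed over the 12 tumors on log2(TPM + 1), adjusted over these 7 relations, and computed again without the 2 tumors farthest from the median of Ciita. None of the 7 had an adjusted p below 0.05. For the α chain H2-Aa, r was -0.126 (permutation p = 0.711, adjusted p = 0.958), rho was -0.21 (permutation p = 0.512, adjusted p = 0.908), and r was 0.0542 (permutation p = 0.893) without the 2 farthest tumors. For H2-Ab1 r was 0.197 (permutation p = 0.538, adjusted p = 0.958), rho was 0.112 (permutation p = 0.732, adjusted p = 0.908), and r was 0.23 (permutation p = 0.522) without the 2 farthest tumors. For H2-Eb1 r was -0.0636 (permutation p = 0.843, adjusted p = 0.958), rho was -0.161 (permutation p = 0.618, adjusted p = 0.908), and r was 0.32 (permutation p = 0.387) without the 2 farthest tumors. None of the class II chains thus had a correlation with Ciita that passed, and the sign for H2-Aa and H2-Eb1 changed without the 2 farthest tumors. For H2-Aa the sign also changed without the first DOX/IgG1 tumor alone, where r was 0.161. For the invariant chain Cd74, r was -0.197 (permutation p = 0.546, adjusted p = 0.958), rho was -0.224 (permutation p = 0.485, adjusted p = 0.908), and r was -0.107 (permutation p = 0.773) without the 2 farthest tumors. For H2-DMb1 r was 0.0176 (permutation p = 0.958, adjusted p = 0.958), rho was 0.0699 (permutation p = 0.836, adjusted p = 0.908), and r was 0.0581 (permutation p = 0.88) without the 2 farthest tumors. For H2-DMb2 r was 0.113 (permutation p = 0.726, adjusted p = 0.958), rho was 0.0385 (permutation p = 0.908, adjusted p = 0.908), and r was 0.111 (permutation p = 0.767) without the 2 farthest tumors. Neither β chain of the peptide exchange factor had a p below 0.05, and its α chain had one before adjustment but not after it. H2-DMa had the lowest p, in the negative direction: r was -0.586 (permutation p = 0.0453, adjusted p = 0.317), rho was -0.65 (permutation p = 0.0252, adjusted p = 0.176), and r was -0.626 (permutation p = 0.0511) without the 2 farthest tumors. After group means were subtracted its r was -0.562 (permutation within groups p = 0.348).

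**Figure D5:**
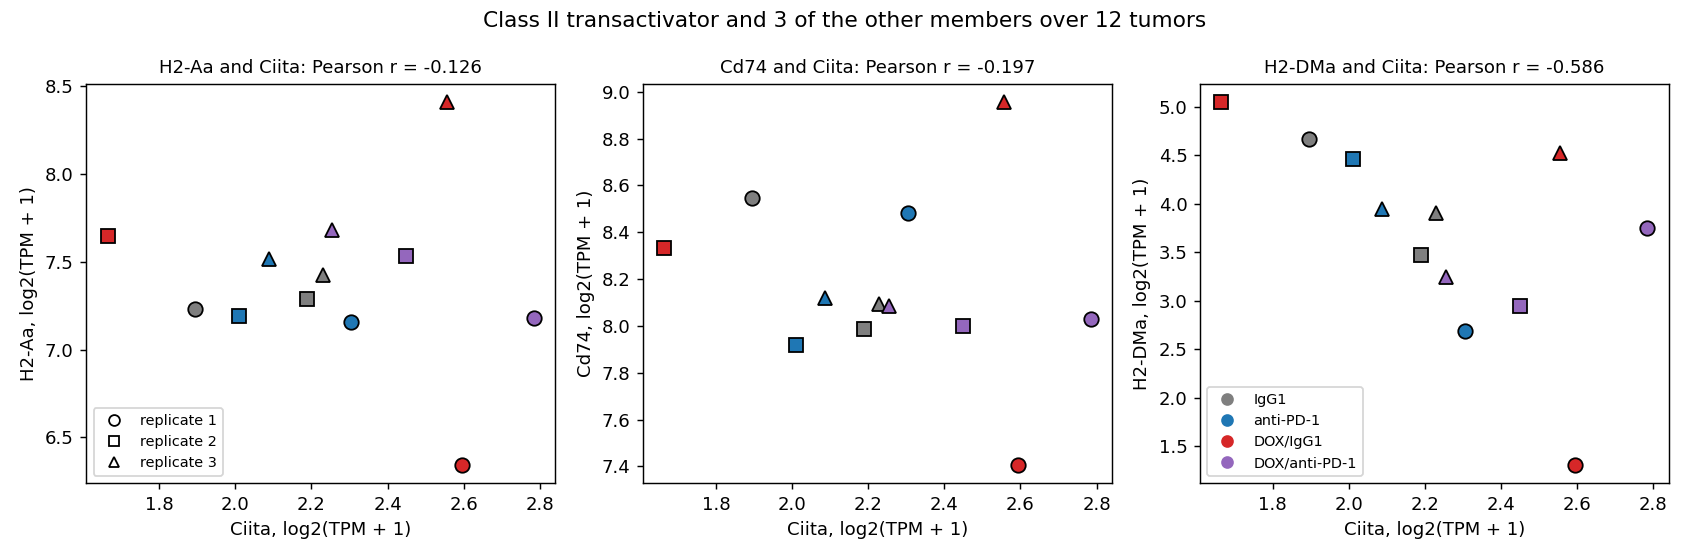
H2-Aa, Cd74 and H2-DMa against Ciita, all as log2(TPM + 1), with 1 point per tumor coloured by treatment group. r is -0.126 for H2-Aa, -0.197 for Cd74 and -0.586 for H2-DMa over 12 tumors.

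H2-Aa and Ciita were each set against the 12 marker lists, as log2 of the summed TPM + 1, which made 24 relations adjusted together. No Pearson correlation had an adjusted p below 0.05, and the tumors left out were the 2 farthest from the median of each list. For H2-Aa and NK cell markers r was 0.718 (permutation p = 0.0028, adjusted p = 0.0672), rho was 0.853 (permutation p = 0.00081, adjusted p = 0.0194), and r was 0.56 (permutation p = 0.0823) without the 2 farthest tumors. For T cell markers r was 0.685 (permutation p = 0.00946, adjusted p = 0.102), rho was 0.734 (permutation p = 0.00876, adjusted p = 0.105), and r was 0.732 (permutation p = 0.0149) without the 2 farthest tumors. For the leukocyte gene Ptprc r was 0.677 (permutation p = 0.0128, adjusted p = 0.102), rho was 0.517 (permutation p = 0.0882, adjusted p = 0.392), and r was 0.18 (permutation p = 0.617) without the 2 farthest tumors. The rank correlation with NK cell markers was the only one of these to have an adjusted p below 0.05. Its Pearson correlation no longer had a p below 0.05 without the second and the third DOX/IgG1 tumor and rests in part on them, and that with Ptprc rests on the first and the third DOX/IgG1 tumor. After group means were subtracted, r was 0.778, 0.714 and 0.764 for these lists, with permutation within groups p = 0.0448, 0.145 and 0.0841 and an adjusted p = 0.496 for each. For dendritic cell markers r was 0.0945 (permutation p = 0.779, adjusted p = 0.844), rho was 0.042 (permutation p = 0.905, adjusted p = 0.905), and r was -0.346 (permutation p = 0.338) without the 2 farthest tumors. For macrophage markers r was 0.347 (permutation p = 0.271, adjusted p = 0.578), rho was 0.462 (permutation p = 0.136, adjusted p = 0.466), and r was 0.321 (permutation p = 0.382) without the 2 farthest tumors. For B cell markers r was 0.41 (permutation p = 0.191, adjusted p = 0.572), rho was 0.434 (permutation p = 0.164, adjusted p = 0.491), and r was -0.142 (permutation p = 0.69) without the 2 farthest tumors. In the dendritic cell sum of the first DOX/IgG1 tumor 1 marker, Clec10a, made up most of the value. Without that tumor r with H2-Aa was 0.448 (permutation, adjusted p = 0.515), without the third DOX/IgG1 tumor -0.341 (permutation, adjusted p = 0.634), and with the mean of log2(TPM + 1) over the markers in place of their sum 0.732 (permutation, adjusted p = 0.102); adjusted p ran from 0.102 to 0.946 over all alternatives. The relation of H2-Aa to dendritic cell markers thus depends on how the list is summarised. With the same mean, r was 0.169 for B cell markers. For fibroblast markers r was 0.578 (permutation p = 0.0472, adjusted p = 0.226), rho was 0.664 (permutation p = 0.0222, adjusted p = 0.177), and r was 0.41 (permutation p = 0.249) without the 2 farthest tumors. This p below 0.05 did not pass the adjustment and rests on the third anti-PD-1 and the first DOX/IgG1 tumor. For H2-Aa and the markers of lymph node, mammary epithelium, adipocyte, salivary gland and skeletal muscle, r lay between 0.0247 and 0.525 and rho between -0.049 and 0.357, with adjusted p from 0.305 to 0.936 and from 0.533 to 0.905 in permutation tests. Differences between these correlations were not tested, nor was the part of any marker list in the level of H2-Aa.

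Ciita was compared with the same lists. With dendritic cell markers r was 0.385 (permutation p = 0.215, adjusted p = 0.574), rho was 0.503 (permutation p = 0.0979, adjusted p = 0.392), and r was 0.307 (permutation p = 0.392) without the 2 farthest tumors. With macrophage markers r was -0.198 (permutation p = 0.538, adjusted p = 0.718), rho was -0.168 (permutation p = 0.606, adjusted p = 0.692), and r was -0.34 (permutation p = 0.333) without the 2 farthest tumors. With B cell markers r was 0.22 (permutation p = 0.49, adjusted p = 0.692), rho was 0.175 (permutation p = 0.587, adjusted p = 0.692), and r was -0.178 (permutation p = 0.623) without the 2 farthest tumors. None of these relations passed. With T cell markers r was -0.284 (permutation p = 0.37, adjusted p = 0.682), rho was -0.301 (permutation p = 0.342, adjusted p = 0.533), and r was 0.000587 (permutation p = 0.999) without the 2 farthest tumors. With NK cell markers r was -0.351 (permutation p = 0.264, adjusted p = 0.578), rho was -0.392 (permutation p = 0.21, adjusted p = 0.533), and r was -0.326 (permutation p = 0.354) without the 2 farthest tumors. With Ptprc r was -0.269 (permutation p = 0.399, adjusted p = 0.684), rho was -0.294 (permutation p = 0.356, adjusted p = 0.533), and r was -0.41 (permutation p = 0.237) without the 2 farthest tumors. With the mean of log2(TPM + 1) over the markers in place of their sum, r of Ciita with dendritic cell markers was 0.103. With lymph node markers, all listed at 0 in the first DOX/IgG1 tumor, r was -0.608 (permutation p = 0.0364, adjusted p = 0.219), rho was -0.615 (permutation p = 0.0378, adjusted p = 0.227), and r was -0.308 (permutation p = 0.388) without the 2 farthest tumors. This negative relation did not pass the adjustment and rests on the first DOX/IgG1 and the first DOX/anti-PD-1 tumor, the 2 left out. For Ciita and the markers of mammary epithelium, adipocyte, salivary gland, skeletal muscle and fibroblast, r lay between -0.335 and 0.232 and rho between -0.329 and 0.378, with adjusted p from 0.578 to 0.844 and from 0.533 to 0.799 in permutation tests. Without the second and the third DOX/IgG1 tumor, r of Ciita with salivary gland markers was 0.672 (permutation p = 0.0331, adjusted p = 0.397).

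The 4 most abundant members were summarised by the mean z-score of H2-Aa, H2-Ab1, H2-Eb1 and Cd74, used as a description with no test. Among 14735 genes over the 12 tumors, the genes outside the members with the highest r with this score were Enho (0.915), Myh11 (0.91), Esr1 (0.904), Lhfp (0.903), Trpc6 (0.902), Vtcn1 (0.902), Fam118a (0.9), Hmcn1 (0.898), Gfra2 (0.888) and Cited1 (0.887). Myh11 encodes smooth muscle myosin, Esr1 the estrogen receptor α, and Vtcn1 the inhibitory ligand B7-H4. Their rank correlations ran from 0.545 (Cited1) to 0.895 (Vtcn1). Without the 2 tumors farthest from the median of the score, r lay between 0.498 (Cited1) and 0.83 (Fam118a). H2-DMb2 ranked 154 of 14735 by r with the score (0.787), H2-DMa 908 (0.616), H2-DMb1 1551 (0.527) and Ciita 8982 (-0.0527). The genes most like Ciita itself were Brpf1 (0.896), Nsl1 (0.878), Timmdc1 (0.845), Gm21897 (0.845) and Prdm15 (0.837). These genes were taken as the highest of all, so their r values carry no p.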

How the data were processed

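RNA sequencing of 12 snap frozen tumors used stranded total RNA libraries and single-end reads of 75 bases. Per the labels and the methods of the study, the authors aligned reads to mm10 with STAR, quantified genes with RSEM and deposited log2(TPM + 1) values, without versions given; TPM was recovered from them, and depth is not kept by TPM.

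The members, 7 pathway lists and 12 marker lists were chosen with earlier results of these data known. Comparisons used limma 3.58.1 (R 4.3.3) with a mean-dependent prior on log2(TPM + 1), for genes of at least 1 TPM in at least 3 tumors of a fit; p-values were adjusted by Benjamini-Hochberg over all genes tested. Fold changes are on this scale, which understates changes of low genes. Single genes were also tested by exact two-sided permutation, and correlations by two-sided permutation with 100000 resamples (Python 3.11.15, scipy 1.17.1). The fits were tested on simulated data. Named list genes were those called, the most abundant of a list and those with the largest absolute log2 fold change in a comparison; others are said to be chosen after their values were seen, and some list genes are not reported here. The genes most like the members were the 10 with the highest r with the mean z-score of the 4 most abundant members and the 5 with the highest r with Ciita. Alternatives were a pseudocount of 0.1 TPM, no minimum on TPM, median-of-ratios scaling, the replicate number as a block, no limit on the fold change, 1 fit of all tumors, and each tumor left out in turn; for correlations, leaving out the 2 farthest tumors, subtracting group means and the mean log2 value of a marker list were planned, and leaving out each single tumor was added after seeing the data, as were leaving out each marker from the dendritic cell and macrophage sums and the alternatives for single dendritic cell and adipocyte markers and for genes called outside the lists. Overlapping genes were taken from GENCODE on GRCm38.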

Additional observations from a re-analysis of the deposited data

Results flagged for a closer look

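Bpifa2, a salivary gland marker, was the only gene called for a difference in the effect of doxorubicin between the antibody arms (interaction, limma adjusted p = 0.0909). It was at 14.4, 21.3 and 53.7 TPM in the DOX/IgG1 tumors and listed at 0 in the other 9, so that no fold is given. The call did not hold under most alternatives: the adjusted p was 0.102 with scaling by the median of ratios, 0.276 with the replicate block and 0.991 with a pseudocount of 0.1 TPM, and it ran from 0.0332 to 0.991 over all alternatives. With 1 tumor left out the gene was called without the first DOX/IgG1 tumor (adjusted p = 0.0332) and in no other case. It is not a class II gene, and its relation to the class II values was not tested.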

How the results depend on the processing

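Of 736 values of the members' log2 fold changes under alternatives to the 56 reported, none passed for a call by limma, the lowest adjusted p being 0.128. Settings other than leaving out a tumor kept the sign of 247 of 256 such values and changed it in 9; leaving out a tumor changed the sign in at least 1 case for 33 of the 56. Where a value changed sign or a count moved, the cause was not tested. Sequencing depth is unknown, so that no limit set by depth can be given.

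Correlations of deviations between tumors of the same replicate number ran from -0.0963 to 0.134. Some tumors matched best with their own number and others did not. Whether the numbers pair the tumors was not tested. With the number as a replicate block, genes called went from 5 to 2, of which 1 was among the 5, in DOX/IgG1 versus IgG1, from 3 to 1 for doxorubicin over both antibodies and from 1 to 0 for the term interaction of doxorubicin and anti-PD-1; no member was called under the block.

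With median-of-ratios scaling, genes called went from 0 to 3 in DOX/anti-PD-1 versus DOX/IgG1, from 3 to 14 for doxorubicin over both antibodies and from 1 to 0 for the term interaction of doxorubicin and anti-PD-1. The same scaling turned the log2 fold change of H2-Ab1 (-0.020) and Cd74 (-0.10) in DOX/IgG1 versus IgG1, H2-Aa in anti-PD-1 versus IgG1 (0.0073), H2-Aa (0.024) and H2-Ab1 (0.015) in DOX/anti-PD-1 versus DOX/IgG1, H2-DMb1 for doxorubicin over both antibodies (-0.085) and H2-Aa for anti-PD-1 over both chemotherapy arms (0.016).

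A pseudocount of 0.1 TPM took the term interaction of doxorubicin and anti-PD-1 from 1 to 0 genes called, and turned H2-DMb2 in DOX/IgG1 versus IgG1 (-0.33) and DOX/anti-PD-1 versus DOX/IgG1 (0.76) and H2-Ob in DOX/anti-PD-1 versus anti-PD-1 (-0.29). With no minimum on TPM that interaction had 3 calls, and with all 12 tumors in 1 fit DOX/anti-PD-1 versus DOX/IgG1 had 2.

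Pearson r changed sign without the 2 farthest tumors for H2-Aa and Ciita (0.0542), H2-Eb1 and Ciita (0.32), H2-Aa and dendritic cell markers (-0.346), H2-Aa and B cell markers (-0.142), Ciita and B cell markers (-0.178), Ciita and T cell markers (0.000587), and H2-Aa and the markers of lymph node (-0.0672), mammary epithelium (-0.168) and salivary gland (-0.535). With group means subtracted r was -0.088 for H2-Aa and -0.177 for Ciita with adipocyte markers. For H2-DMb1 and Ciita it was -0.00231 with a pseudocount of 0.1 TPM, and for H2-DMb2 and Ciita -0.0634 with that pseudocount and -0.055 with group means subtracted.

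For DOX/IgG1 versus IgG1 with tumors left out in turn, genes called numbered from 0 to 122, and the lowest and highest log2 fold changes, for the members and for others whose sign changed, were H2-Aa from -0.32 to 0.71, H2-Ab1 from -0.22 to 0.41, H2-Eb1 from -0.0015 to 0.85, H2-DMa from -1.10 to 0.77, H2-DMb1 from 0.060 to 0.70, H2-DMb2 from -0.52 to 1.35, Cd74 from -0.34 to 0.44, Ciita from 0.0055 to 0.47 and Cd40 from -0.32 to 0.93.

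For DOX/anti-PD-1 versus anti-PD-1 with tumors left out in turn, genes called numbered from 0 to 4, and the lowest and highest log2 fold changes, for the members and for others whose sign changed, were H2-Aa from 0.069 to 0.32, H2-Ab1 from 0.30 to 0.62, H2-Eb1 from 0.25 to 0.39, H2-DMa from -0.89 to -0.0014, H2-DMb1 from -0.76 to 0.22, H2-DMb2 from 0.79 to 1.54, Cd74 from -0.26 to 0.018, Ciita from 0.22 to 0.48, H2-Ob from -0.36 to 1.06 and Ifi30 from -0.96 to 0.18.

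For anti-PD-1 versus IgG1 with tumors left out in turn, genes called numbered from 0 to 4, and the lowest and highest log2 fold changes, for the members and for others whose sign changed, were H2-Aa from -0.14 to 0.039, H2-Ab1 from -0.54 to -0.21, H2-Eb1 from -0.46 to -0.33, H2-DMa from -0.70 to 0.18, H2-DMb1 from -0.29 to 0.0038, H2-DMb2 from -1.21 to -0.45, Cd74 from -0.19 to 0.13 and Ciita from -0.075 to 0.092.

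For DOX/anti-PD-1 versus DOX/IgG1 with tumors left out in turn, genes called numbered from 0 to 4, and the lowest and highest log2 fold changes, for the members and for others whose sign changed, were H2-Aa from -0.57 to 0.47, H2-Ab1 from -0.32 to 0.31, H2-Eb1 from -0.92 to -0.070, H2-DMa from -1.47 to 0.40, H2-DMb1 from -1.26 to -0.27, H2-DMb2 from -1.01 to 0.86, Cd74 from -0.61 to 0.17 and Ciita from -0.079 to 0.39.

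For doxorubicin over both antibodies with tumors left out in turn, genes called numbered from 0 to 212, and the lowest and highest log2 fold changes, for the members and for others whose sign changed, were H2-Aa from -0.044 to 0.42, H2-Ab1 from 0.14 to 0.42, H2-Eb1 from 0.18 to 0.56, H2-DMa from -0.70 to 0.13, H2-DMb1 from -0.16 to 0.28, H2-DMb2 from 0.41 to 1.24, Cd74 from -0.23 to 0.12 and Ciita from 0.19 to 0.41.

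For anti-PD-1 over both chemotherapy arms, 0 genes were called with any 1 tumor left out, and the lowest and highest log2 fold changes, for the members and for others whose sign changed, were H2-Aa from -0.27 to 0.19, H2-Ab1 from -0.33 to -0.050, H2-Eb1 from -0.63 to -0.25, H2-DMa from -0.83 to 0.00037, H2-DMb1 from -0.65 to -0.22, H2-DMb2 from -0.91 to -0.073, Cd74 from -0.29 to 0.056 and Ciita from -0.019 to 0.19.

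For the term interaction of doxorubicin and anti-PD-1 with tumors left out in turn, genes called numbered from 0 to 1, and the lowest and highest log2 fold changes, for the members and for others whose sign changed, were H2-Aa from -0.54 to 0.50, H2-Ab1 from 0.014 to 0.64, H2-Eb1 from -0.53 to 0.33, H2-DMa from -1.15 to 0.72, H2-DMb1 from -1.09 to -0.10, H2-DMb2 from -0.20 to 1.68, Cd74 from -0.57 to 0.20 and Ciita from -0.11 to 0.36.

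Leaving out each tumor in turn, the lowest and highest r, where the sign changed, were -0.474 to 0.161 for H2-Aa and Ciita, -0.487 to 0.22 for H2-Eb1 and Ciita, -0.19 to 0.262 for H2-DMb1 and Ciita, -0.13 to 0.324 for H2-DMb2 and Ciita, -0.544 to 0.0207 for Cd74 and Ciita, -0.341 to 0.448 for H2-Aa and dendritic cell markers, -0.0798 to 0.229 for H2-Aa and adipocyte markers, -0.209 to 0.761 for H2-Aa and salivary gland markers, -0.00589 to 0.268 for H2-Aa and skeletal muscle markers, -0.334 to 0.0408 for Ciita and macrophage markers, -0.49 to 0.000778 for Ciita and T cell markers, -0.273 to 0.102 for Ciita and mammary epithelium markers, -0.286 to 0.632 for Ciita and adipocyte markers and -0.171 to 0.319 for Ciita and skeletal muscle markers.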
